A study of Mus musculus with 2 samples.

Results

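The genes described here encode SNARE proteins, synaptotagmins and the factors that dock and prime secretory granules, in MIN6 cells, a mouse insulinoma line that secretes insulin. They were taken by symbol from the deposited table as all Syt, Sytl, Stx, Stxbp, Vamp, Cplx, Unc13, Rims, Sv2, Syn1 to Syn3, Exoc, Cadps, Doc2 and Rph3a genes together with Snap23, Snap25, Snap29 and Snap47. This gave 89 of 30868 listed features. RNA was sequenced from 2 libraries, 1 from MIN6 cells labelled normal and 1 from MIN6 cells labelled high glucose and palmitate, called the treated library below. Both sample records describe the same treatment medium, with glucose at 33.3 mmol/l, palmitate at 0.4 mmol/l and albumin at 0.5%, so the medium of the normal library is not stated separately. No duration is given. Values are RPKM, reads scaled to gene length and to library size. They can be compared between genes as levels per length. With 1 library per group there is no replicate error and no test of the treatment, and every ratio below compares these libraries only.

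Secretory granules fuse with the plasma membrane when a VAMP protein on the granule zips up with a syntaxin and a SNAP protein on the plasma membrane. Proteins of the Sec1/Munc18 family (Stxbp) hold the syntaxin ready, Unc13, Rims and Cadps proteins prime the granule, complexins clamp the partly zipped bundle, and synaptotagmins trigger fusion when calcium enters. In beta cells this machinery releases insulin after glucose closes potassium channels and calcium channels open. The Rab27a effector granuphilin, encoded by Sytl4, attaches insulin granules to the plasma membrane.

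The libraries held 44149406 (normal) and 43727919 (treated) reads assigned to genes, recovered from the RPKM values. All 10 beta cell markers checked had a mean RPKM of at least 1, with a summed RPKM of 6360 (normal) and 5803 (treated). Most of that sum was Iapp, at 4664 and 4692 RPKM with a ratio of 1.01 (0.9996 to 1.01, counting error only). The other 9 were all lower in the treated library with intervals below 1, from the insulin genes Ins1 at 0.527 (0.496 to 0.560) and Ins2 at 0.606 (0.599 to 0.614) to Slc30a8 at 0.906 (0.883 to 0.929), and without Iapp the sum was 1695 and 1111 RPKM. Markers of other islet cells went both ways, with ratios of 0.641 (0.554 to 0.741) for Gcg, 1.14 (1.08 to 1.197) for Ttr and 1.30 (1.09 to 1.55) for Sst. The 4 endothelial markers summed to 0.107 and 0.172 RPKM, with Kdr at 0 in both libraries, and the 3 listed fibroblast genes to 0.394 and 0.426. The 4 leukocyte markers summed to 0.985 and 2.10 RPKM, mostly Cd68, which had 50 and 111 reads, a ratio of 2.24 (1.59 to 3.20), while Cd3e had none. Neuronal markers were uneven, with Nefl at 71.7 and 65.3 RPKM and Map2 at 22.4 and 18.8, but Rbfox3 at 7 and 3 reads. In the treated library Spp1, used as a duct marker, stood at 393.5 RPKM against 225.7, and the acinar marker Bhlha15 at 1.53 against 0.545. Cela1, the other acinar marker listed, had 12 reads (normal) and 13 reads (treated), a ratio of 1.09 (0.460 to 2.62). The other duct markers were at or near 0, with no read of Krt19, 0 and 2 reads of Sox9, and 2 and 14 reads of Cftr. The part of these markers in the values below was not tested, and in bulk RNA fewer cells with a transcript and less of it per cell cannot be told apart.

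Of the 89 genes, 66 had a mean RPKM of at least 1 and are compared below. The summed RPKM of all 89 was 1248 (normal) and 1213 (treated), a ratio of 0.972. Complexin 2 (Cplx2), which binds the assembled SNARE bundle, had the highest level, at 213.6 RPKM (normal) and 217.4 RPKM (treated). It made up 17.1% and 17.9% of the summed RPKM of the 89 genes. Among the next by mean level were the granuphilin gene Sytl4, Syt13, Snap25, Vamp8, Stx12, Syt4, Stx16 and Sv2a.

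**Figure D1:**
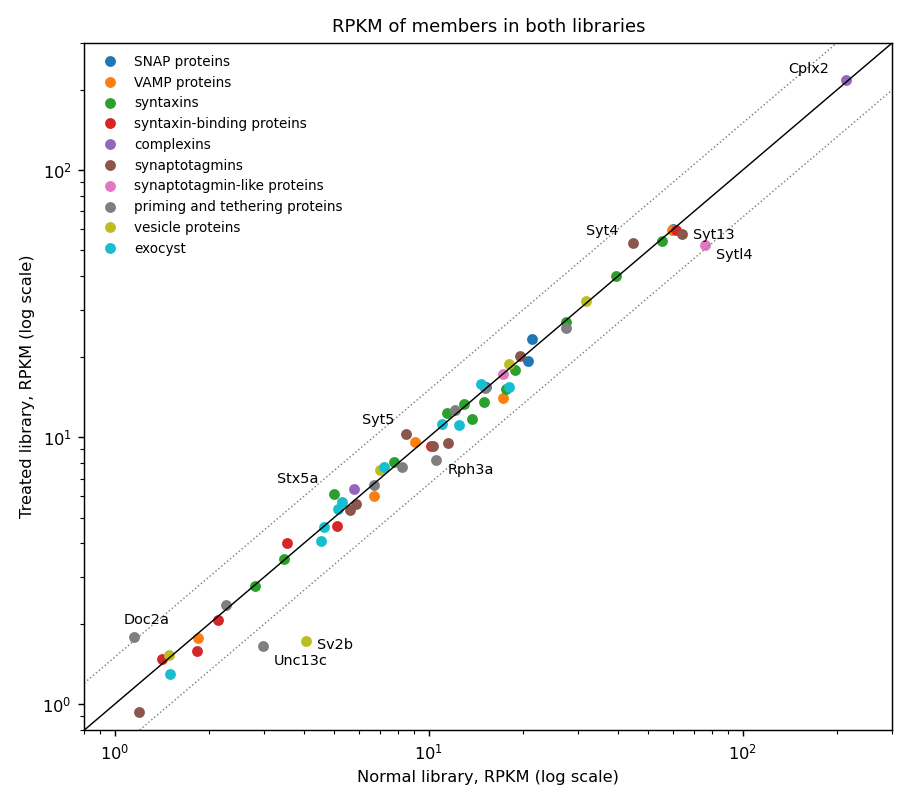
RPKM of the 66 genes of mean RPKM at least 1 in the normal (horizontal) and treated (vertical) library, both on log axes and coloured by family. The solid line marks equal levels and the dotted lines a plain ratio of 1.5 in either direction. Sv2b and Unc13c lie below the lower dotted line, Sytl4 lies inside it, and Doc2a lies just above the upper one.

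Differences between the libraries were scored as the log2 ratio of RPKM + 0.5, treated over normal, with 1.5-fold as the size that was counted. By this rule 2 of the 66 genes were lower in the treated library, Sv2b and Unc13c, which is 3.03% against 1.48% of all 13947 features of mean RPKM at least 1. None of the 66 was 1.5-fold higher, against 1.74% of all features. Past a ratio of 5 to 4 on the same scale, 4 genes were lower and 1 was higher, 6.06% and 1.52%, where all features gave 6.04% and 5.89%. The median log2 ratio was -0.01 over the 66 genes and 0.00 over all features. From the 5th to the 95th percentile the 66 genes ran from -0.33 to 0.23 and all features from -0.36 to 0.35. A plain ratio between 0.9 and 1.1 was found for 45 of the 66 genes, 68.2%, and for 55.7% of all features.

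**Figure D2:**
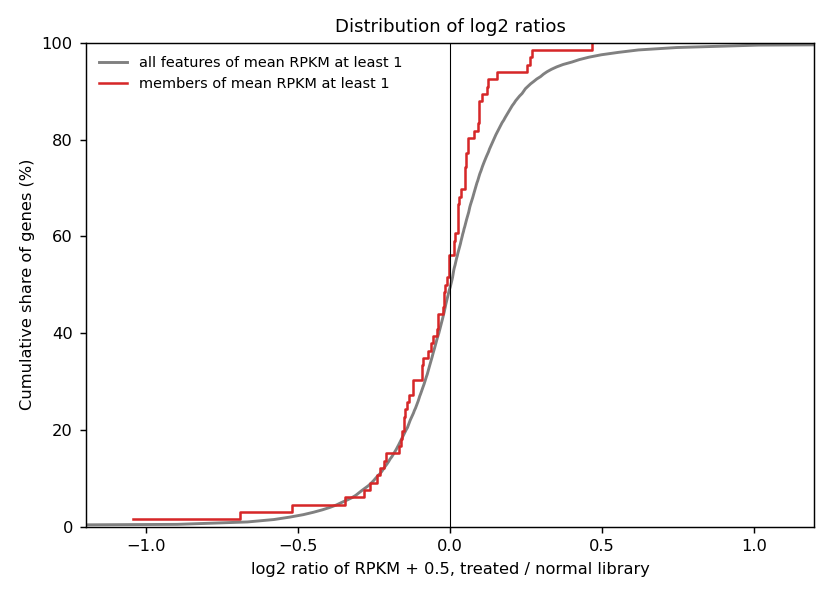
Cumulative share of genes (vertical, %) by log2 ratio of RPKM + 0.5, treated over normal (horizontal), for the 66 genes in red and all 13947 features of mean RPKM at least 1 in grey. The curves cross 50% near 0, at -0.01 and 0.00, and the red curve has its lowest point at -1.04 for Sv2b.

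An exact 95% interval from the recovered reads shows the counting error of each ratio, given in brackets below. It lay above 1 for 13 of the 66 genes and below 1 for 24, or 19.7% and 36.4%, against 22.0% and 22.3% of all features. The median number of reads, summed over the libraries, was 5267 for the 66 genes and 1950 for all features, so their intervals are narrower. Of features with 1 to 19 reads, 75.5% (normal) and 76.2% (treated) had an even number, as when both mates of a read pair are counted, so the intervals may be too narrow. With reads taken as such pairs, 8 genes lay above and 17 below 1, or 12.1% and 25.8%, against 15.1% and 15.6% of all features.

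**Figure D3:**
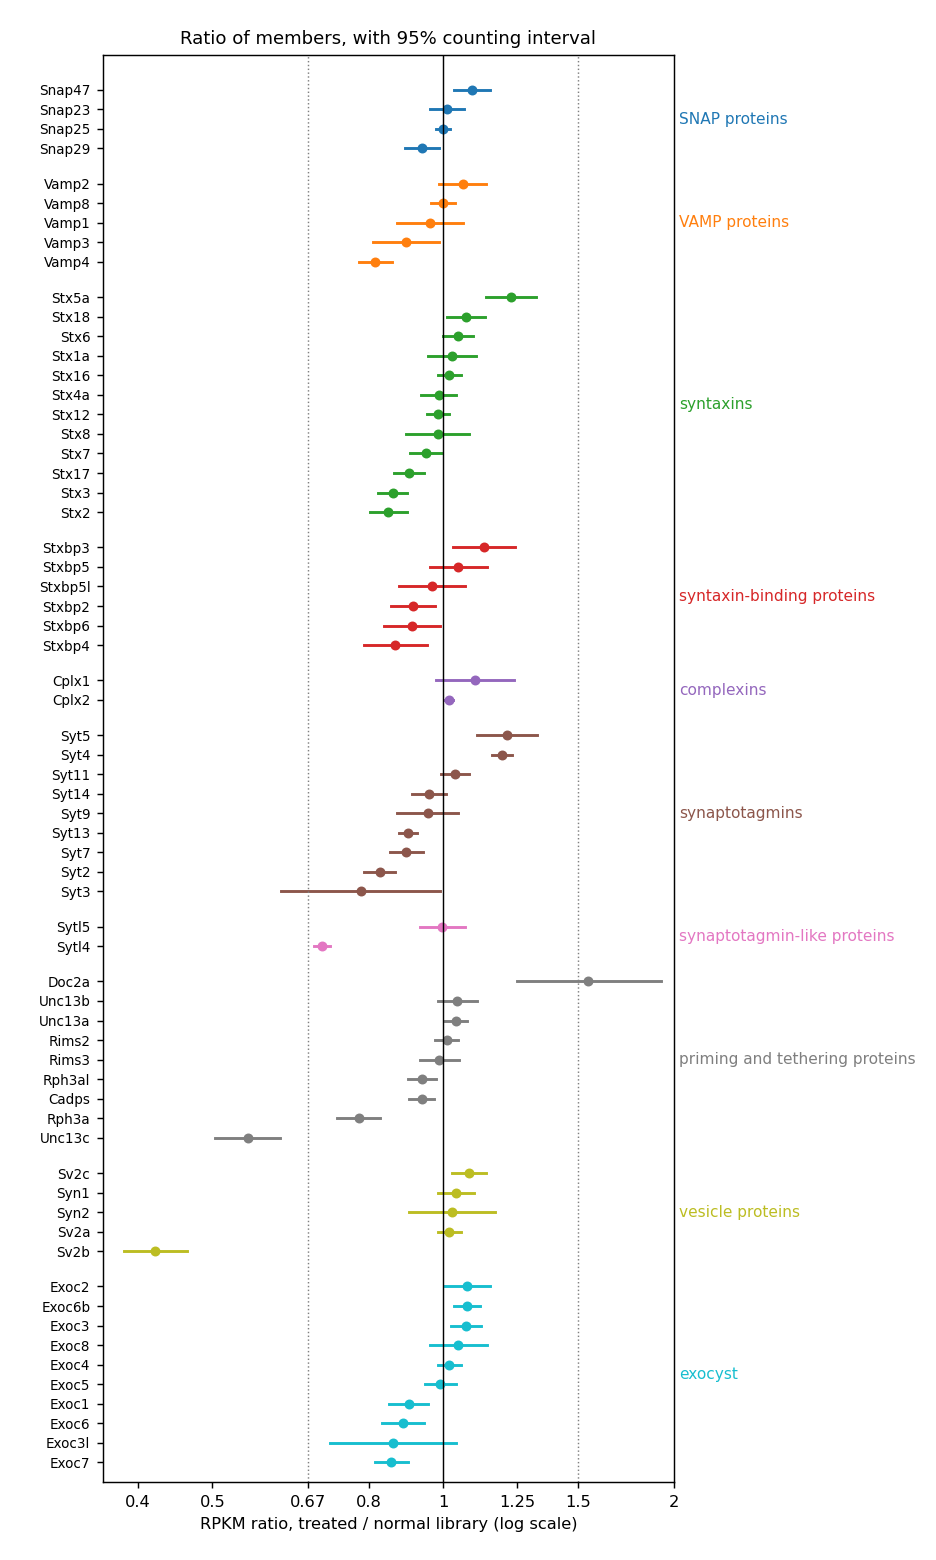
Plain RPKM ratio of treated to normal library (horizontal, log scale) for 64 of the 66 genes, ordered by family and by ratio, with bars for the exact 95% counting interval. Dotted lines mark plain ratios of 0.67 and 1.5. Most points lie close to 1, and Sv2b at 0.422, Unc13c at 0.556, Sytl4 at 0.695 and Doc2a at 1.55 stand farthest from it.

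The start regions of the 3 genes with the lowest ratios, Sv2b, Unc13c and Sytl4, and of Stx5a, which had the highest ratio among those of the 66 genes with a listed start region, are shown because the report turns on these genes. Each is the 250 bases before the RefSeq start site on GRCm38.p6, read along the gene's strand, at chr7:75309263-75309512 (minus), chr9:73969038-73969287 (minus), chrX:133981813-133982062 (minus) and chr19:8741174-8741423 (plus). Where RefSeq lists several start sites, the most upstream was taken. Capitals mark GGGCGG (GC box) and CCAAT on either strand.
Sv2b: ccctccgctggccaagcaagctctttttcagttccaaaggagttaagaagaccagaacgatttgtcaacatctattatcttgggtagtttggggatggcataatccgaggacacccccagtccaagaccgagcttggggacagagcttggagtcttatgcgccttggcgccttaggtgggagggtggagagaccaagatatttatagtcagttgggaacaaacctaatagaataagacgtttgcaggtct
Unc13c: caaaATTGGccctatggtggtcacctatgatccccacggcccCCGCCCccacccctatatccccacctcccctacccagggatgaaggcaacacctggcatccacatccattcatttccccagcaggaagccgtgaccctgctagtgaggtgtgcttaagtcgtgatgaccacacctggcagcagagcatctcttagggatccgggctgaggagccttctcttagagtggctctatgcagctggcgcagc
Sytl4: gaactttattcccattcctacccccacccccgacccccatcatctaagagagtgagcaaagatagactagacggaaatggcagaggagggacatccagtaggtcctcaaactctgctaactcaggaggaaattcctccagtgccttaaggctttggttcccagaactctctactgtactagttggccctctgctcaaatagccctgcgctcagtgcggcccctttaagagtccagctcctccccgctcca
Stx5a: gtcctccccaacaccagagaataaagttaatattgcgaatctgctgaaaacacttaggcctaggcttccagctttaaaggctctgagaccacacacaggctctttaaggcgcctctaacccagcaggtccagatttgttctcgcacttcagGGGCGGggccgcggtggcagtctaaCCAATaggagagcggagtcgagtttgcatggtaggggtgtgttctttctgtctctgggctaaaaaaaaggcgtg
Unc13c and Stx5a each hold 1 GGGCGG and 1 CCAAT, which do not overlap, and the windows of Sv2b and Sytl4 hold neither. None of the 4 holds the E-box CACGTG or the cAMP response element TGACGTCA. Over the 88 such windows listed for 68 of the 89 genes, GGGCGG was found in 54.5%, CCAAT in 31.8%, CACGTG in 12.5% and TGACGTCA in 2.27%. Over all 32851 windows these shares were 32.7%, 33.8%, 6.02% and 1.55%. These are matches of letters only.

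Among granule and vesicle membrane proteins, Sv2b differed most. Sv2 proteins are glycoproteins of secretory vesicles. Sv2b stood at 4.08 RPKM in the normal library, from 1509 reads, and at 1.72 RPKM in the treated library, from 630 reads, a ratio of 0.422 (0.383 to 0.463). On the log2 scale it stood at -1.04, the 51st lowest of the 13947 features. Both paralogs were near equal or slightly higher in the treated library. Sv2a, the most abundant of them, had 31.8 RPKM (normal) and 32.4 RPKM (treated), a ratio of 1.02 (0.984 to 1.05). Sv2c had 7.001 and 7.56, a ratio of 1.08 (1.03 to 1.14). Sv2b thus made up 6.53% of the summed RPKM of the Sv2 and synapsin genes (normal) and 2.77% (treated). Synapsins tether vesicles to each other and to actin. Syn1 had 18.0 RPKM (normal) and 18.7 RPKM (treated), Syn2 had 1.49 and 1.53, and Syn3 had 12 and 15 reads. Sv2b lies on the minus strand of chromosome 7, from 74764642 to 74959010 (GRCm39, as in the table). Its exons share 47 bases, 0.561% of its length, with 1500012K07Rik on the opposite strand, which had 8 reads (normal) and 0 reads (treated).

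Synaptotagmin-like proteins carry paired C2 domains and bind Rab27. Sytl4 stood at 75.7 RPKM in the normal library, from 17136 reads, and at 52.6 RPKM in the treated one, from 11791 reads. The ratio was 0.695 (0.679 to 0.711), and with reads taken as pairs its interval ran from 0.672 to 0.718. On the log2 scale used for counting this was -0.52, short of 1.5-fold, and the 288th lowest of 13947. Sytl5, the other family member above the filter, had 17.2 RPKM in both libraries, a ratio of 0.998 (0.933 to 1.07). Accordingly Sytl4 made up 81.4% of the family's summed RPKM (normal) and 75.1% (treated), and the family's sum was 93.1 and 70.1 RPKM. Sytl1, Sytl2 and Sytl3 were nearly absent. Sytl1 had 8 reads (normal) and 30 reads (treated), Sytl2 had 13 and 12, and Sytl3 had 4 and 0. Sytl4 lies on the minus strand of chromosome X, from 132837134 to 132882561 (GRCm39) and shares no exon with another listed feature. Rab27a, whose product granuphilin binds, had 54.9 and 49.4 RPKM, a ratio of 0.900 (0.874 to 0.927). Rab27a belongs to a list of other exocytosis genes and was picked out after its values were seen, and its exons overlap another feature.

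**Figure D4:**
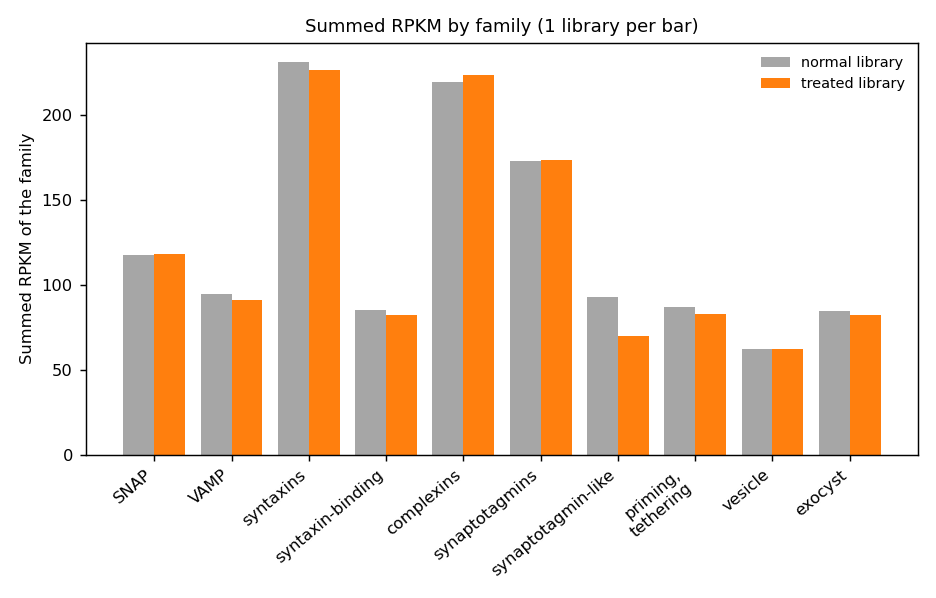
Summed RPKM of each family (vertical, from 0) in the normal (grey) and treated (orange) library, 1 library per bar with no error bar. The synaptotagmin-like family differs most, at 93.1 and 70.1 RPKM, and the complexins stand at 219.4 and 223.8.

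Priming and tethering proteins held Unc13c, the lowest of the 66 genes by ratio after Sv2b, and also the highest, Doc2a. Unc13 proteins (Munc13) open syntaxin so that the SNARE bundle can form. Unc13c had 2.96 RPKM (normal) and 1.65 RPKM (treated), from 1150 and 633 reads, a ratio of 0.556 (0.504 to 0.613) and the 128th lowest log2 ratio of 13947. It lies on the minus strand of chromosome 9, from 73386704 to 73876248 (GRCm39), with no exon overlap. The more abundant Unc13a, which acts in insulin granule priming, went from 12.1 to 12.6 RPKM between the normal and the treated library, a ratio of 1.04 (1.01 to 1.08), with an interval that included 1 under median-of-ratios scaling (0.996 to 1.06). Unc13b had 2.26 and 2.36 RPKM, and Unc13d had 4 and 9 reads.

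Rph3a encodes rabphilin 3A, an effector of Rab3 and Rab27 on granules. It had 10.6 RPKM (normal) and 8.22 RPKM (treated), a ratio of 0.776 (0.728 to 0.828). Its relative Rph3al (Noc2), which is needed for regulated insulin release in mice, had the highest level of the group at 27.4 and 25.7 RPKM, a ratio of 0.938 (0.899 to 0.978). Doc2a encodes a soluble calcium sensor with C2 domains. It was the highest of the 66 genes by ratio, at 1.16 RPKM from 143 reads in the normal and 1.79 RPKM from 219 reads in the treated library, a ratio of 1.55 (1.247 to 1.92). On the scale of RPKM + 0.5 its log2 ratio was 0.47, under 1.5-fold. Exons of Doc2a overlap Ino80e on the opposite strand over 39.4% of its length, and Ino80e itself had a ratio of 1.13 (1.05 to 1.21), so reads of the pair may be mixed if counting ignored strand, and the strand setting is not given. Doc2b, the Doc2 protein best known from beta cells, had 20 and 26 reads, and Doc2g had 56 and 65. Rims2, the active zone scaffold that links Rab3 to calcium channels, had 15.2 and 15.3 RPKM. Rims3 had 6.70 and 6.62, Rims1 had 2 reads in each library, and Rims4 had none, which allows up to 0.0137 RPKM (normal) and 0.0138 RPKM (treated) by counting error alone. Cadps (CAPS1), which primes dense core granules, had 8.21 and 7.70 RPKM, a ratio of 0.938 (0.902 to 0.974).

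The SNARE proteins of the fusion step itself were close in both libraries. Snap25, the main plasma membrane partner of syntaxin 1A, had 60.07 RPKM (normal) and 60.00 RPKM (treated), a ratio of 0.999 (0.978 to 1.02). Its ubiquitous relative Snap23 had 15.3 and 15.5 RPKM. The counting interval lay above 1 for Snap47, at 21.4 and 23.3 RPKM with a ratio of 1.09 (1.03 to 1.15), and below 1 for Snap29, at 20.6 and 19.4 RPKM with a ratio of 0.938 (0.891 to 0.986). Exons of Snap47 overlap Jmjd4 over 11.6% of its length on the opposite strand.

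Plasma membrane syntaxins anchor the bundle on the target membrane. Stx1a, the syntaxin of predocked insulin granules, had 13.0 RPKM (normal) and 13.3 RPKM (treated), a ratio of 1.03 (0.957 to 1.10). The most abundant of this subgroup was Stx4a, which encodes syntaxin 4, at 27.3 and 27.0 RPKM, a ratio of 0.987 (0.936 to 1.04). Stx2 and Stx3 were lower in the treated library. Stx2 had 13.8 RPKM (normal) and 11.7 RPKM (treated), a ratio of 0.848 (0.802 to 0.896). Stx3, which acts on the granule membrane in granule to granule fusion, had 17.6 and 15.2, a ratio of 0.860 (0.823 to 0.898). These 2 were the only plasma membrane syntaxins of 5 above the filter with an interval that excluded 1. Both intervals lay below 1, or 2 of 5 against 22.3% of all features, and none lay above 1, against 22.0%. In either direction, 6173 of all 13947 features had an interval that excluded 1. With only 5 genes no difference in share is claimed.

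Syntaxins of internal membranes went both ways, with 4 of 8 above a log2 ratio of 0, or 50.0% against 50.7% of all features. Stx5a, which acts between the endoplasmic reticulum and the Golgi, had 5.01 RPKM (normal) and 6.13 RPKM (treated), a ratio of 1.23 (1.14 to 1.32). A feature on the opposite strand shares 20.5% of the length of Stx5a, and Mir6992 on the same strand shares 109 bases with it. Mir6992 had 10 reads (normal) and 24 reads (treated). Stx18, of the endoplasmic reticulum, had 11.5 and 12.3 RPKM, a ratio of 1.07 (1.01 to 1.13), and 32.3% of its length overlaps opposite-strand features, among them Nsg1. Autophagosomes carry Stx17, which stood at 15.0 and 13.5 RPKM, a ratio of 0.903 (0.863 to 0.945). The endosomal Stx12 was the most abundant syntaxin, at 55.3 and 54.4 RPKM, and Stx16 of the trans-Golgi network had 39.4 and 40.2. Stx6, Stx7 and Stx8 had ratios of 1.05, 0.949 and 0.983.

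On the granule side, Vamp2, the VAMP of insulin granules cleaved by tetanus toxin, had 9.06 RPKM (normal) and 9.61 RPKM (treated), a ratio of 1.06 (0.988 to 1.14). Vamp8, a VAMP of endosomes and of newcomer granules, was higher per length, at 59.5 and 59.4 RPKM with a ratio of 0.999 (0.963 to 1.03), and made up 62.8% of the family's summed RPKM in the normal library. Vamp4, which acts at the trans-Golgi network and on immature granules, was lowest by ratio. It had 17.2 and 14.1 RPKM, a ratio of 0.816 (0.776 to 0.858), and no exon overlap. Vamp3 had 6.72 and 6.02 RPKM, a ratio of 0.895 (0.811 to 0.988), and Vamp1 had 1.84 and 1.77. Vamp5 had 32 and 46 reads, Vamp9 0 and 2, and Vamp7-ps, a pseudogene taken in by its symbol, 5 and 0.

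Syntaxin-binding proteins differed little, and all 7 passed the filter. Stxbp2 had 10.2 and 9.28 RPKM. Stxbp3, which encodes the partner of syntaxin 4, had 3.54 and 4.004 RPKM and the family's highest ratio of 1.13 (1.03 to 1.24), with an interval from 0.989 to 1.29 when reads were taken as pairs. Stxbp4 (Synip), another syntaxin 4 partner, had 1.83 and 1.59 RPKM and the lowest, 0.866 (0.788 to 0.952). The tomosyn genes Stxbp5 and Stxbp5l, inhibitors of SNARE assembly, had ratios of 1.05 and 0.967, and amisyn (Stxbp6) had 0.911 (0.839 to 0.991).

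Complexins were dominated by Cplx2, which held 97.4% of the family's RPKM (normal) and 97.1% (treated). The ratio of Cplx2 was 1.02 (1.005 to 1.03), with an interval from 0.995 to 1.02 under median-of-ratios scaling, and Cplx1 had 5.80 and 6.38 RPKM, a ratio of 1.10 (0.979 to 1.24). Cplx3 had 0 and 2 reads and Cplx4 none.

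Synaptotagmins spread to both sides. Among those that bind calcium through their C2 domains, 4 of 5 above the filter were below a log2 ratio of 0, against 6877 of all 13947 features. The interval lay below 1 for 3 of the 5, against 22.3% of all features. With reads taken as pairs it did so for 2, against 15.6%. With only 5 genes no trend is claimed. Syt7, a slow calcium sensor of insulin exocytosis, had 10.3 RPKM (normal) and 9.26 RPKM (treated), a ratio of 0.895 (0.852 to 0.940). The fast sensor gene Syt2 had 11.5 and 9.51, a ratio of 0.826 (0.788 to 0.866). Syt9, a sensor for fast insulin release in rodent beta cells, had 5.61 and 5.36, a ratio of 0.954 (0.872 to 1.04). Syt3 was just above the filter, at 1.19 and 0.931 RPKM, with a ratio of 0.782 (0.615 to 0.992) and an interval from 0.554 to 1.10 with reads taken as pairs. Syt5 was the exception, at 8.44 and 10.2 RPKM with a ratio of 1.21 (1.11 to 1.33) and no exon overlap. Syt1, the classical neuronal sensor, lay just under the filter with 1.02 and 0.900 RPKM.

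The highest levels of the family were those of Syt13, Syt4 and Syt11, atypical synaptotagmins, which bind calcium weakly or not at all. Syt13 led with 64.2 RPKM (normal) and 57.7 RPKM (treated), a ratio of 0.899 (0.875 to 0.925). Syt4, which in maturing mouse beta cells lowers the calcium sensitivity of secretion, went the other way, at 44.8 and 53.5 RPKM with a ratio of 1.19 (1.16 to 1.23). Of the family's summed RPKM, Syt13 held 37.1% (normal) and 33.2% (treated), and Syt4 held 25.9% and 30.8%. Exons of Syt4 overlap Gm26658 on the opposite strand over 14.5% of its length, and Gm26658 had a ratio of 1.19 (1.12 to 1.26). Syt11 had 19.5 and 20.2 RPKM and Syt14 had 5.87 and 5.63. The atypical Syt12, Syt16 and Syt17 were below the filter, with 81 and 98, 4 and 6, and 21 and 25 reads. The family's summed RPKM was 172.9 (normal) and 173.8 (treated).

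The exocyst tethers vesicles to the plasma membrane before SNARE pairing. Its subunit genes Exoc1 to Exoc8 and the paralog Exoc6b were all above the filter, with a summed RPKM of 83.1 and 81.0. Of these, 5 were above and 4 below a log2 ratio of 0, or 55.6% above against 50.7% of all features. Exoc7, whose product binds membrane phosphoinositides, was the most abundant in the normal library, at 18.0 RPKM against 15.4 in the treated library, a ratio of 0.856 (0.814 to 0.899). Exoc6 had 12.5 and 11.1 RPKM, a ratio of 0.886 (0.832 to 0.943), and Exoc1 had 4.54 and 4.10, a ratio of 0.902 (0.851 to 0.956). In the other direction, Exoc3 had 14.7 and 15.8 RPKM, a ratio of 1.07 (1.03 to 1.12), and Exoc6b and Exoc2 had ratios of 1.07 (1.03 to 1.12) and 1.08 (1.005 to 1.15). The interval of Exoc2 included 1 under median-of-ratios scaling (0.995 to 1.14). Exoc4, Exoc5 and Exoc8 had intervals that included 1. Exoc3l had 1.503 and 1.29 RPKM. Exoc3l2 had no reads, and Exoc3l4 had 8 reads (normal) and 10 reads (treated).

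The other 23 of the 89 genes were below a mean RPKM of 1. Of these, 3 had no read in either library and 4 had reads in 1 library only. Sytl1 was the only one of the 23 with a counting interval that excluded 1, at 3.79 (1.70 to 9.56).

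Another 60 genes of exocytosis and membrane fusion were taken as a list, among them Nsf, the SNAP adaptors of Nsf, Rab3 and Rab27 genes, active zone scaffolds and the remaining SNARE genes. Of these, 52 passed the filter, none was 1.5-fold higher or lower, against 1.74% and 1.48% of all features, and the interval lay above 1 for 14 and below 1 for 15, or 26.9% and 28.8% against 22.0% and 22.3%. Their median log2 ratio was 0.01. The 3 highest were Bet1l at 1.36 (1.24 to 1.499), Bet1 at 1.29 (1.16 to 1.44) and Sec22a at 1.252 (1.09 to 1.43). All 3 are genes of the early secretory pathway. The 3 lowest were Apba1 at 0.762 (0.702 to 0.827), which encodes an adaptor of the Mint family, Scamp3 at 0.777 (0.707 to 0.854) and the Rab27 effector gene Exph5 at 0.802 (0.753 to 0.855). Exons of Bet1l, Apba1 and Scamp3 overlap another feature, and those of Bet1, Sec22a and Exph5 do not.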

How the data were processed

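RNA from 2 MIN6 libraries was sequenced after Trizol extraction and a stranded mRNA library kit, per the labels' protocols. The authors deposited RPKM values for both libraries in 1 table, with exon coordinates and the gene length, on GRCm39 per the submitters' processing notes, which also name Trimmomatic 0.36 and edgeR 3.12.1. The aligner, the counting tool and its strand setting were not given in the sources used here. Columns were matched to samples by their titles.

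Whole reads were recovered as RPKM times length times 1 factor per library, and 100% of values came out whole within 0.01 read. Ratios are treated over normal RPKM. Exact 95% (Clopper-Pearson) intervals were computed for the share of a gene's reads that fell in the treated library and turned into ratios. They cover counting error only, because each group has 1 library. Without molecular identifiers reads may repeat a molecule, so even for counting error the intervals may be too narrow. Log2 ratios used a pseudocount of 0.5 RPKM, which understates differences of low genes, and a mean RPKM of at least 1. Exon overlaps were taken from the table's coordinates. Promoter windows came from RefSeq on GRCm38.p6. The steps were tested on simulated reads drawn independently, which cannot show whether the intervals hold for reads counted in pairs. Python 3.11.15, numpy 2.4.6, pandas 2.3.3, scipy 1.17.1 and matplotlib 3.10.9 were used.

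The genes, lists and thresholds were chosen with earlier results of these data known. Genes were named by rule: Sytl4 and Sv2b, those past 1.5-fold, the 12 highest and 12 lowest ratios, the 15 highest levels, the highest of each family and a textbook set of beta cell exocytosis genes (47 in all, a few of which are not reported here). Others are named to show the range of a family. Of the further exocytosis list, up to 6 by size of ratio were named. Alternatives were other scalings, filters, pseudocounts and thresholds (1.25-fold and 2-fold), leaving out genes with overlapping exons, and counting read pairs.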

Additional observations from a re-analysis of the deposited data

How the results depend on the processing

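The 2 other scalings were median of ratios, and equal totals without the 10 most abundant features. They multiplied the treated values by 0.990 and 1.005. Under either, no called ratio among the 47 named genes was reversed, and all 94 rescaled ratios stayed within their counting intervals. Shifts this small could not have reversed a called ratio here, so the absence of reversals carries no weight. The count of genes at least 1.5-fold higher was 1 in place of 0 with a pseudocount of 0.1 and at a ratio of 5 to 4, the gene being Doc2a. The count of genes at least 1.5-fold lower was 2, and it was 0 with a mean RPKM of at least 5, 1 without genes that overlap another feature (Sv2b left out), 1 with a pseudocount of 1, 1 with a 2-fold threshold and 4 at a ratio of 5 to 4. Intervals above 1 numbered 13, against 10 with median-of-ratios scaling, where those of Cplx2, Exoc2 and Unc13a came to include 1, 14 with equal totals, 7 without overlapping genes and 8 with read pairs. Intervals below 1 numbered 24, against 25 and 23 under these scalings, 21 without overlapping genes and 17 with read pairs. Leaving out overlapping genes kept 51 of the 66 genes, and a mean RPKM of at least 5 kept 49. With the latter filter 11 intervals lay above 1 and 18 below. Shares of all features were not taken under these 2 settings. The low level of Sv2b and Unc13c, under 5 RPKM in both libraries, limits these counts. No paired analysis was possible because each group has 1 library, and for the same reason no replicate could be left out.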

Other observations

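SNARE and SNARE-related genes of transport between the endoplasmic reticulum and the Golgi were mostly higher in the treated library. They were grouped after their values were seen, so no test is given. Of 13 such genes (Stx5a, Stx18, Bet1, Bet1l, Gosr1, Gosr2, Sec22a, Sec22b, Sec22c, Ykt6, Use1, Bnip1 and the Sec1/Munc18 gene Scfd1), 12 had a log2 ratio above 0 and 9 had a counting interval above 1, or 92.3% and 69.2%, where all 13947 features gave 50.7% and 22.0%. The median log2 ratio was 0.19 and the summed RPKM was 112.0 (normal) and 122.7 (treated). Gosr2 had 22.7 and 26.7 RPKM, a ratio of 1.18 (1.12 to 1.23), Sec22b had 6.66 and 7.64, a ratio of 1.15 (1.06 to 1.24), and Scfd1 had 5.62 and 6.52, a ratio of 1.16 (1.11 to 1.22). Use1 was the exception at 15.3 and 13.1 RPKM, a ratio of 0.852 (0.790 to 0.919). Exons of 5 of the 13 genes overlap another feature. The plasma membrane syntaxins, by comparison, had a median log2 ratio of -0.02 over 5 genes.

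Ptprn and Ptprn2, paralogous granule membrane proteins of the insulinoma antigen family, lay on opposite sides of 1. Ptprn had 48.4 RPKM (normal) and 57.2 RPKM (treated), a ratio of 1.18 (1.15 to 1.21), and Ptprn2 had 47.6 and 42.4, a ratio of 0.891 (0.873 to 0.911). They too were picked after their values were seen, and exons of Ptprn, but not of Ptprn2, overlap another feature.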
